A study of Mus musculus with 10 samples.

Results

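The core circadian clock genes Arntl, Clock, Npas2, Per1, Per2, Per3, Cry1, Cry2, Nr1d1 and Dbp were followed in the kidney cortex of diabetic and control mice. They were chosen by name, with earlier results of these data known, and all 10 had a row among the 16475 genes measured. RNA came from cortex depleted of glomeruli, taken at 24 weeks of age from mice on the BKS background, and each mouse gave 1 Affymetrix array. The db/db group held 5 diabetic mice, in which a mutation of the leptin receptor acts in the whole body, and the 5 db/m mice were their nondiabetic littermates, heterozygous carriers of that mutation. The time of day at which tissue was taken was not given in the sources used here, nor were feeding or lighting. Levels are given as log2 values, and a change is the db/db mean less the db/m mean, ± its standard error.

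The clock is a feedback loop that runs in nearly every cell. ARNTL, also called BMAL1, pairs with CLOCK or its relative NPAS2 and binds E-boxes, which switches on the Per and Cry genes, Nr1d1 and Dbp. PER and CRY proteins then block the activator pair, while NR1D1, or REV-ERB alpha, represses Arntl through ROR elements. In most mouse tissues Arntl and Npas2 therefore peak when Dbp and Nr1d1 are low, and the Per and Cry genes follow in a fixed order. In the kidney the clock is known to time salt, water and glucose transport.

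The promoters of the genes on which the results turn were searched for letters of these 2 kinds of element. Sequences are the 250 bases before a RefSeq start site in GRCm38.p6, written 5′ to 3′ on the gene's strand. Capitals mark E-boxes (CACGTG) in Per1 and Ciart, and the E-box and its variant (CACGTT on the other strand) in Cry1. In Arntl they mark TTGGTCA and TCGGTCA, matches to TNGGTCA, the pattern searched as the ROR element, with any base at N. Binding at these matches was not tested. Ciart, a further repressor of the loop, is shown because its values run beside those of Dbp.
Per1, chr11:69098699-69098948, plus strand: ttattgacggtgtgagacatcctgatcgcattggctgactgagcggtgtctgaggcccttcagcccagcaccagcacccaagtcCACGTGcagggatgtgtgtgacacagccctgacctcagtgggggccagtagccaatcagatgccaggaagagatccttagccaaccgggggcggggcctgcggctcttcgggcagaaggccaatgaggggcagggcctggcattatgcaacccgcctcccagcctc
Cry1, chr10:85185055-85185304, minus strand: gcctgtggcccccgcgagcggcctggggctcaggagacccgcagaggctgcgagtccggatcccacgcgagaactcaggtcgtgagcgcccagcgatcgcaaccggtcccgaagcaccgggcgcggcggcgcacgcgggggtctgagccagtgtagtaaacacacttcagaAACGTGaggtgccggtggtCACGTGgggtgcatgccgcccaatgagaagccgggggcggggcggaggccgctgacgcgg
Ciart, chr3:95882229-95882478, minus strand: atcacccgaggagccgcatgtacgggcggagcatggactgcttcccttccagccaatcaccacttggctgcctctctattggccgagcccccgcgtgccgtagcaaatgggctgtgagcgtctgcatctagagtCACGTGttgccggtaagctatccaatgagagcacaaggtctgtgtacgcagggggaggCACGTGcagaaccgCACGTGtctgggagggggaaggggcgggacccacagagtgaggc
Arntl, chr7:113207215-113207464, plus strand: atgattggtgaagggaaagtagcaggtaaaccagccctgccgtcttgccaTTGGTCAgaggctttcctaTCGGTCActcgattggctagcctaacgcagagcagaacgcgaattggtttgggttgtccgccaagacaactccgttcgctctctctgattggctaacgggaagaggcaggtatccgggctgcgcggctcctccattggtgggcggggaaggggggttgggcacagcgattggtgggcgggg
RefSeq promoters were found for 9 of the 10 members, all but Per2, in 13 windows, and both strands were searched. Of these members 2, Per1 and Cry1, had an E-box in the window, against 6.02% of all 32851 promoter windows of this length. A member was counted if any of its windows held the element, while the shares are per window, so they are not like for like. The variant was found in Cry1, Cry2 and Nr1d1, against 3.85% of all windows. A match to the ROR pattern was found in Arntl, Cry2 and Per3, against 9.19%. Per3 held the D-box (TTATGTAA or TTACGTAA), the element bound by DBP, at 205 to 198 and at 158 to 151 bases before the start, against 0.931% of all windows. None of these matches overlapped another. They are descriptions of the letters in these windows only.

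Markers of the proximal tubule were bright in all mice, with a mean over the 5 markers of 13.08 to 13.35 in db/m and 12.74 to 13.35 in db/db. One array stood apart: db/db 1 correlated with the other arrays at 0.938 to 0.962 across genes, while the others correlated at 0.985 or more. In db/db 1 the mean of 5 injured tubule markers was 12.51 and that of 6 leukocyte markers 11.99, against 6.26 to 7.63 and 7.64 to 8.14 in db/m. The other db/db mice were not uniform. Lcn2, S100a8 and S100a9 stood 4.87, 3.65 and 3.11 above the db/m mean in db/db 2 and 4.38, 3.70 and 3.32 in db/db 3. In db/db 4 and 5 they were at -0.82 to 0.29 from it. Ptprc, Cd68, Adgre1, Cd3e, Havcr1 and Vcam1 lay below the db/m mean in db/db 3, 4 and 5 and above it in db/db 2. None of the members of these 2 lists was called by limma with all arrays, and 1 and 0 had an unadjusted p under 0.05. Values without db/db 1 are therefore given beside the results on named genes. Fewer cells of a type and less RNA per cell cannot be told apart in such samples.

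**Figure D1:**
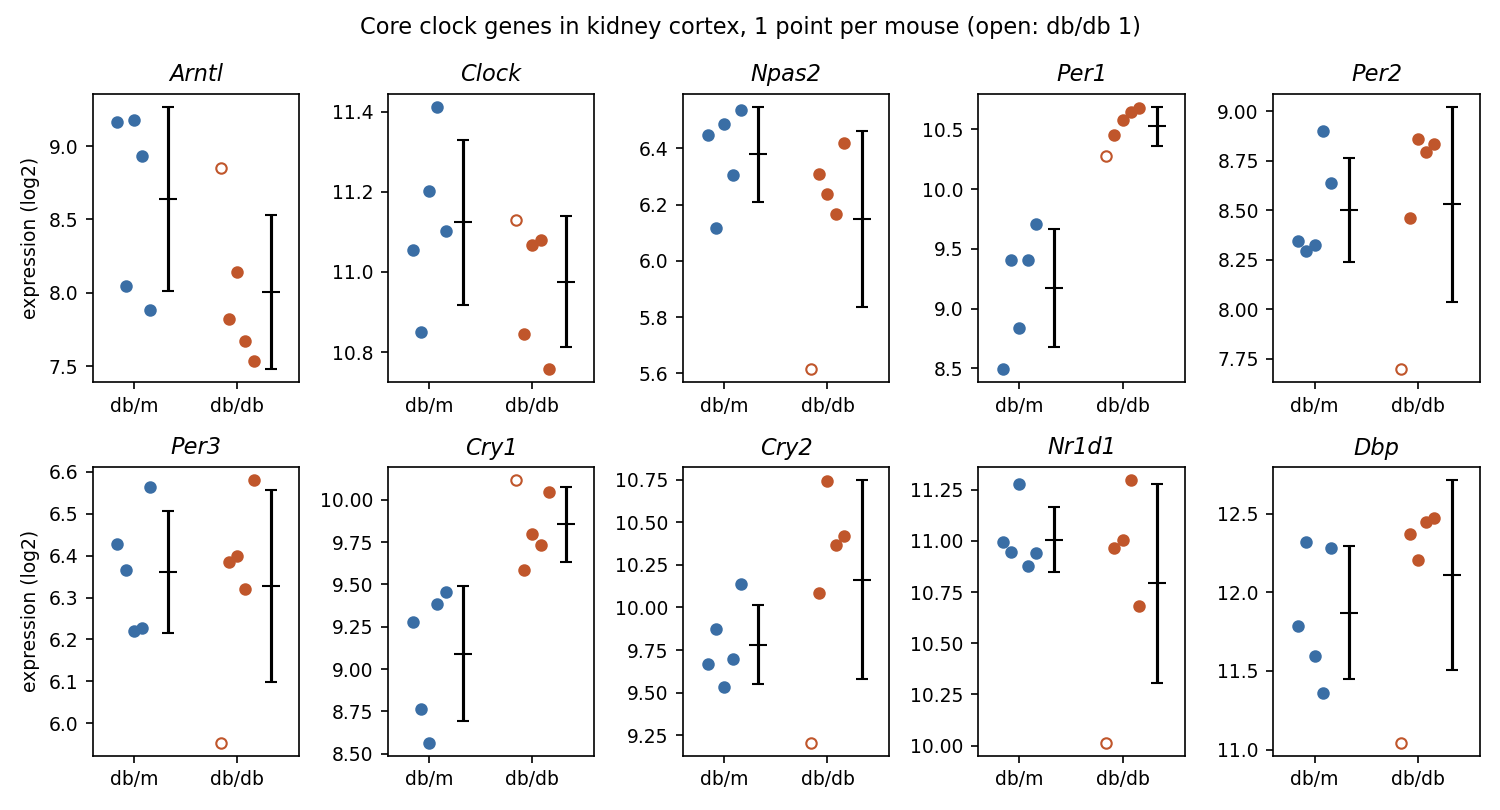
Expression of the 10 core clock genes (log2, each panel with its own axis) in each mouse of the db/m and db/db groups, with the mean and SD as bars and db/db 1 as an open point. Per1 and Cry1 are the genes whose groups do not overlap, while db/db 1 is the lowest point for Npas2, Per2, Per3, Cry2, Nr1d1 and Dbp.

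Per1 and Cry1, which encode repressors of the loop, rose in db/db. Per1 was 2.56-fold and Cry1 1.70-fold higher, and for both genes every db/db mouse lay above every db/m mouse. The other 8 members did not pass the threshold, among them all 3 activators. Of the 10 members 2 rose and 0 fell by limma at an adjusted p under 0.05. Among all genes 6.51% were called, 2.96% higher and 3.54% lower, or 488 and 584 genes (363 and 751 with each of the 10 arrays centred on its median). An unadjusted p under 0.05 was found for 21.5% of all genes and 2 members. The groups did not overlap for the same 2 members and for 10.2% of all genes, 4.35% higher and 5.85% lower. Without db/db 1, 3 members rose and 0 fell, against 12.8% of all genes called, 6.84% higher and 5.93% lower, and the groups were apart for 2 members and 15.4% of all genes. The median change over the 10 members was 0.00, and that over all genes was -0.03. With db/db 1 left out these medians were 0.15 and -0.01.

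Per1 is also switched on directly by light, hormone and stress signals, besides its E-boxes. In db/m it read 8.49, 9.41, 8.84, 9.41 and 9.71 in mice 1 to 5, and in db/db it read 10.28, 10.45, 10.58, 10.64 and 10.68. The lowest db/db mouse stood 0.57 above the highest db/m mouse, and the db/m mice were spread over a wider range. The means were 9.17 ± 0.49 and 10.53 ± 0.16 (SD, n = 5 each), a change of 1.35 ± 0.21 (limma adjusted p = 0.00658). Leaving out any 1 array kept the call of Per1, with an adjusted p of at most 0.0236, reached without db/m 3. Leaving out db/db 1 gave a change of 1.42 ± 0.22 (limma adjusted p = 0.00352).

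Cry1 encodes the cryptochrome that acts late in the repressive part of the cycle. It read 9.28, 8.76, 8.56, 9.38 and 9.46 in db/m mice 1 to 5, and 10.12, 9.59, 9.80, 9.73 and 10.05 in db/db mice 1 to 5. The groups were apart by 0.13, much less than for Per1. The means were 9.09 ± 0.40 and 9.86 ± 0.22 (SD, n = 5 each), a change of 0.77 ± 0.19 (limma adjusted p = 0.0401). This call sat near the threshold. It was kept in 2 of the 10 fits that left out 1 array, those without db/m 5 (adjusted p = 0.0414) and without db/db 1 (adjusted p = 0.0412), and was lost in the others, with an adjusted p of up to 0.0826 without db/m 2. It was also lost with arrays centred on their medians (0.70, limma adjusted p = 0.0533).

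The other members of these families did not pass with all 10 arrays. Cry2, the second cryptochrome gene, read 9.67, 9.87, 9.53, 9.70 and 10.14 in db/m and 9.21, 10.08, 10.74, 10.36 and 10.42 in db/db. Mouse db/db 1 was the lowest of all 10 and db/db 3 the highest, so the groups overlapped (change 0.38 ± 0.25, 95% interval -0.18 to 0.95, limma adjusted p = 0.429). When db/db 1 was left out, Cry2 rose by 0.62 ± 0.15 (limma adjusted p = 0.0251), although db/db 2 still lay below db/m 5. Per2, the period gene closest to Per1 in role, was at 8.29 to 8.90 in db/m, and at 8.46 to 8.86 in db/db apart from db/db 1 at 7.70. Its change was 0.03 ± 0.23 (95% interval -0.47 to 0.53, limma adjusted p = 0.953), and 0.24 ± 0.14 without db/db 1 (adjusted p = 0.328). Per3, a period gene that the loop can run without, was dim, at 6.22 to 6.56 in db/m and 5.95 to 6.58 in db/db, with a change of -0.03 ± 0.12 (limma adjusted p = 0.900), or 0.060 ± 0.089 without db/db 1 (adjusted p = 0.742). The 95% interval for Per3 was -0.30 to 0.23, and that for Per1 was 0.88 to 1.83.

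**Figure D2:**
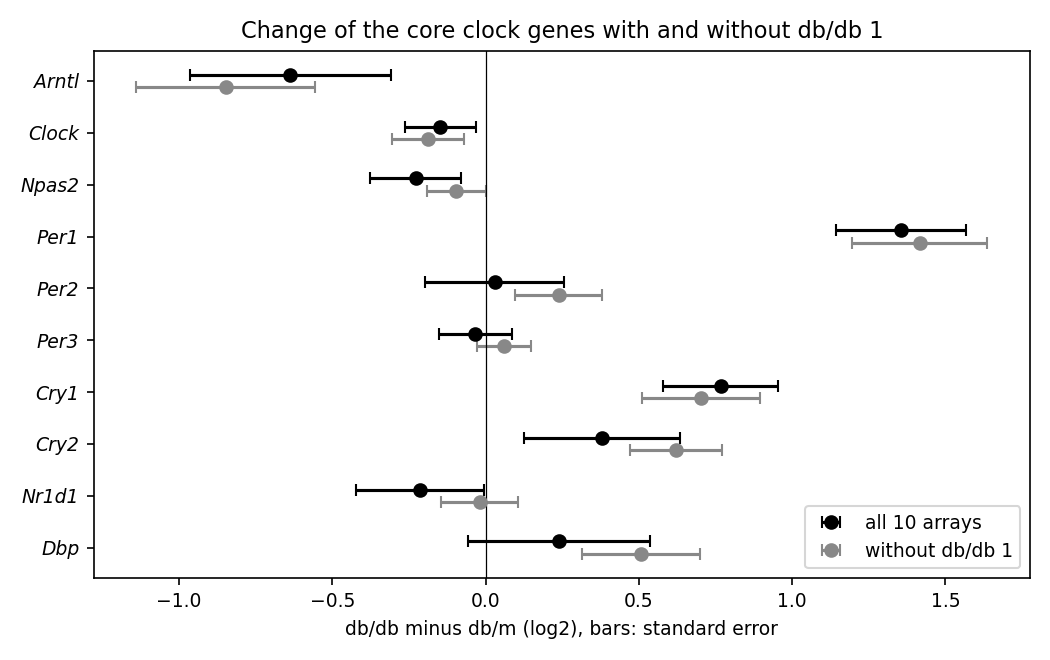
Change of each core clock gene in db/db against db/m (log2), with its standard error, from all 10 arrays (black) and without db/db 1 (grey). Per1 stands at 1.35 and 1.42 and Cry1 at 0.77 and 0.70, while Cry2 moves from 0.38 to 0.62 and Arntl from -0.64 to -0.85.

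Arntl, the activator without a substitute in the loop, had a lower mean in db/db but did not pass the test. It read 9.17, 8.05, 9.18, 8.94 and 7.88 in db/m mice 1 to 5, and 8.85, 7.82, 8.14, 7.67 and 7.54 in db/db mice 1 to 5. Both groups held high and low mice: db/m 2 and 5 lay among the db/db mice, and db/db 1 lay near the other db/m mice. The means were 8.64 ± 0.63 and 8.004 ± 0.52 (SD, n = 5 each), a change of -0.64 ± 0.33 (95% interval -1.37 to 0.09, limma adjusted p = 0.295). Without db/db 1 it was -0.85 ± 0.29 (limma adjusted p = 0.0900), and with arrays weighted by quality, which gave db/db 1 a weight of 0.102, it was -1.005 (adjusted p = 0.0304).

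The partners of ARNTL differed less. Clock was at 10.85 to 11.41 in db/m and 10.76 to 11.13 in db/db, with a change of -0.15 ± 0.12 (95% interval -0.41 to 0.11, limma adjusted p = 0.506). Npas2, its relative, was dim, at 6.12 to 6.54 in db/m and 5.62 to 6.42 in db/db, where db/db 1 was the lowest (change -0.23 ± 0.15, limma adjusted p = 0.419). Without db/db 1 these changes were -0.19 ± 0.12 (adjusted p = 0.358) and -0.09 ± 0.10 (adjusted p = 0.601). Neither gene passed in any of the fits that left out 1 array.

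The 2 remaining members are direct targets of the activators. Nr1d1, the repressor of Arntl, read 10.99, 10.94, 11.28, 10.88 and 10.94 in db/m and 10.01, 10.96, 11.005, 11.30 and 10.68 in db/db. Its change was -0.21 ± 0.21 (limma adjusted p = 0.601), and -0.02 ± 0.13 without db/db 1 (adjusted p = 0.951). Dbp, an output transcription factor that acts on D-boxes, read 11.79, 12.32, 11.60, 11.36 and 12.29 in db/m and 11.04, 12.37, 12.21, 12.45 and 12.47 in db/db. Here db/m 2 and 5 lay with db/db 2 to 5, and db/db 1 was the lowest of all mice. Its change was 0.24 ± 0.30 (95% interval -0.42 to 0.90, limma adjusted p = 0.685), and 0.51 ± 0.19 without db/db 1 (adjusted p = 0.124).

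Several members varied widely among the control mice alone. The SD of Arntl among the 5 db/m mice, 0.63, was at percentile 99.2 of all genes, that of Per1 at 98.2, that of Dbp at 96.7 and that of Cry1 at 95.9. Above percentile 75 stood 6 of the 10 members, these 4 with Per2 and Cry2. The median SD over the members was 0.25 in db/m, against 0.15 over all genes. In db/db it was 0.40 against 0.22, and without db/db 1 it was 0.17 against 0.14.

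Mice with high Arntl had low Dbp, though in db/db this was db/db 1 alone, whose array stood apart. Ciart, also called CHRONO, read 8.78, 10.05, 8.89, 8.84 and 10.11 in db/m mice 1 to 5, and 8.42, 11.02, 11.44, 11.33 and 10.80 in db/db mice 1 to 5. The 4 mice with the highest Arntl, db/m 1, 3 and 4 and db/db 1, were thus the 4 with the lowest Ciart and the lowest Dbp. Among db/db 2 to 5 alone Ciart did not run opposite to Arntl: db/db 3 had the highest value of both genes and db/db 5 the lowest. With the mean of each group subtracted, Pearson r over the 10 arrays between Arntl and Dbp was -0.887, and -0.872 over 9 arrays without db/db 1. Between Arntl and Ciart it was -0.825, and -0.786 without db/db 1. Between Dbp and Ciart r was 0.931, and 0.785 without db/db 1. Other members did not all follow this picture, and Per1 and Cry1 are given below. For Clock, Per3 and Cry2 r with Arntl was 0.585, -0.753 and -0.702, and 0.514, -0.591 and -0.489 without db/db 1. For Npas2, Nr1d1 and Per2 it was -0.425, -0.354 and -0.501. Without db/db 1 it was 0.138, 0.322 and -0.041, so Npas2 and Nr1d1 changed sign. These r values describe the same arrays, which share their normalisation, and carry no p.

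**Figure D3:**
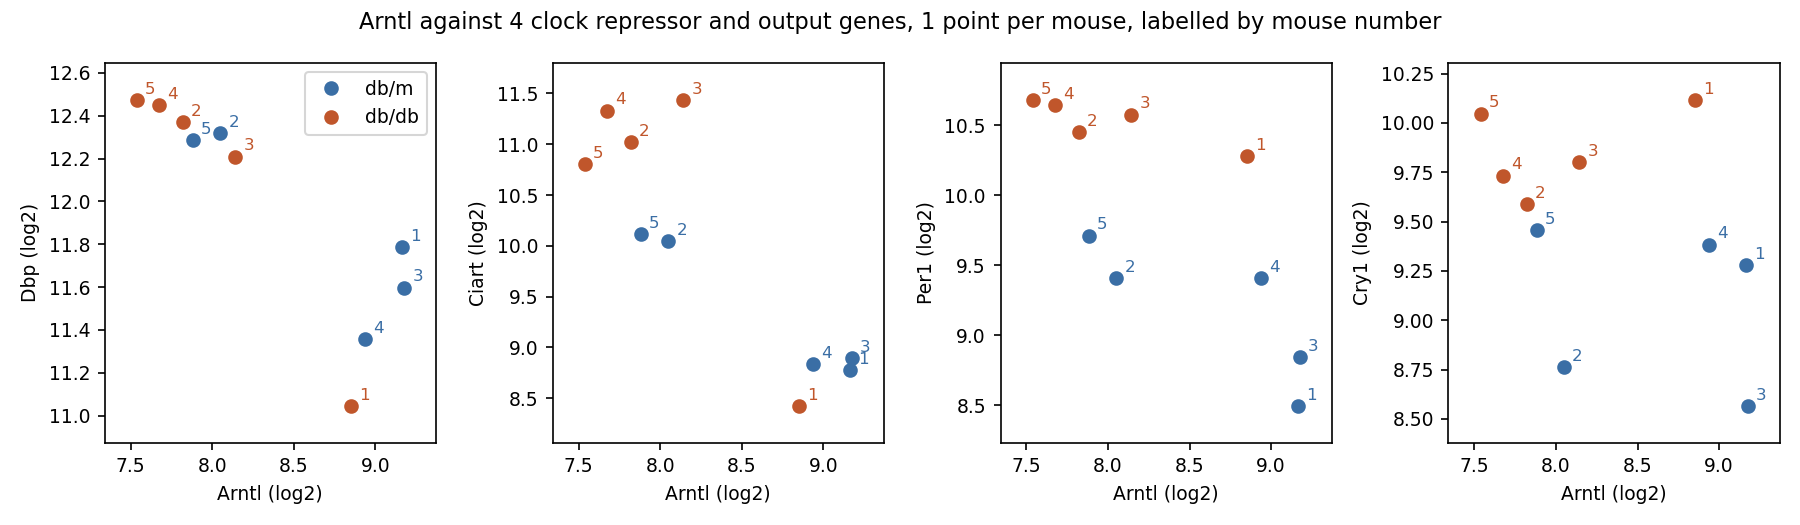
Expression of Dbp, Ciart, Per1 and Cry1 (log2) against that of Arntl (log2), 1 point per mouse labelled with its number, db/m in blue and db/db in orange. For Dbp and Ciart db/m 1, 3 and 4 lie with db/db 1 at high Arntl, while for Per1 and Cry1 all 5 db/db mice lie above all 5 db/m mice.

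Per1 and Cry1 separated the groups where Arntl and Dbp did not. With group means subtracted, Per1 ran opposite to Arntl (r = -0.774, and -0.789 without db/db 1). For Cry1 r with Arntl was 0.025, and -0.207 without db/db 1. At like Arntl levels, db/m 5 at 7.88 and db/db 2 at 7.82, Per1 was 9.71 and 10.45, Ciart 10.11 and 11.02, Dbp 12.29 and 12.37 and Cry1 9.46 and 9.59. For db/m 2 at 8.05 and db/db 3 at 8.14, Per1 was 9.41 and 10.58 and Cry1 8.76 and 9.80. In the same mice Ciart was 10.05 and 11.44 and Dbp 12.32 and 12.21. At high Arntl, db/m 4 at 8.94 and db/db 1 at 8.85, Per1 was 9.41 and 10.28 and Cry1 9.38 and 10.12. There Ciart was 8.84 and 8.42 and Dbp 11.36 and 11.04. These are pairs of single mice, and db/db 1 is the array that stood apart. A shift of the rhythm's phase and a change of the level of single genes cannot be told apart from 1 sample per mouse with no time of collection. What the data show is a rise of Per1 and Cry1, and no call for the activators, Nr1d1 or Dbp. Dbp was low in the db/m mice with high Arntl, and among db/db only in db/db 1, whose array stood apart.

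The genes most like Arntl over the 10 arrays, with group means subtracted and among 11881 genes, were Git2 (r = 0.957), Calr3 (0.944), Ice1 (0.917), Nop58 (0.913) and Exoc1 (0.909). With db/db 1 left out they were Git2 (0.935), Tbc1d4 (0.922), Calr3 (0.918), Ice1 (0.915) and Gpr20 (0.906). Those most like Dbp were Mbl2 (0.982), Bcar1 (0.980), Mul1 (0.969), Dtwd2 (0.968) and Ift52 (0.967). With db/db 1 left out Mbl2 (0.972) and Bcar1 (0.957) were followed by Nr1h4 (0.956), Coa8 (0.949) and Ccnq (0.937). Ciart ranked 58th in likeness to Dbp, and 241st without db/db 1.

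Beyond the members, 62 genes of 8 lists were measured: loop genes, genes under clock control and genes that respond to other signals. Of these 2 rose, Sgk1 and Mt2, and 4 fell, Cipc, Hspa1a, Hspa1b and Hsph1. Among all genes 2.96% were called higher and 3.54% lower, and 21.5% had an unadjusted p under 0.05. These shares also stand beside the list counts that follow. The lists were chosen with earlier results of these data known, so the shares are no test of them. Of 5 further repressors 0 rose and 1 fell. Cipc, which encodes an inhibitor of CLOCK, was at 9.21 to 9.47 in db/m and 8.85 to 9.19 in db/db, apart by 0.03, and fell by 0.39 ± 0.09 (limma adjusted p = 0.0284), or by 0.37 without db/db 1 (adjusted p = 0.0249). Its promoter window also held an E-box, at 17 to 12 bases before the start. Cipc kept its call in 4 of the fits that left out 1 array, with an adjusted p of up to 0.0842 without db/m 3, and lost it with the mouse number as a block (0.0748). For Ciart the change was 1.27 ± 0.56 (limma adjusted p = 0.228), and without db/db 1 it rose by 1.81 ± 0.32 (adjusted p = 0.00580), with the 4 db/db mice 0.69 above the highest db/m mouse.

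Of 7 genes of the second loop and partners of Dbp none was called by limma, and 1 had an unadjusted p under 0.05. This was Rorb, a dim ROR receptor gene (-0.19 ± 0.08, adjusted p = 0.228, and -0.17 without db/db 1, adjusted p = 0.255). Nfil3, a repressor that competes with DBP for D-boxes, stood high in 1 mouse of each group, at 11.33 for db/m 1 and 11.54 for db/db 1, against 8.82 to 9.78 in the other 8 mice (change -0.10 ± 0.56, limma adjusted p = 0.936). Hlf, a relative of Dbp, was at 11.51 to 11.77 in db/m, 10.59 in db/db 1 and 11.83 to 11.95 in db/db 2 to 5. Its change was 0.04 ± 0.24 (limma adjusted p = 0.938), and without db/db 1 Hlf rose by 0.30 ± 0.07 (adjusted p = 0.0186). Of 9 kinase and degradation genes limma called none, with 3 at an unadjusted p under 0.05.

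**Figure D4:**
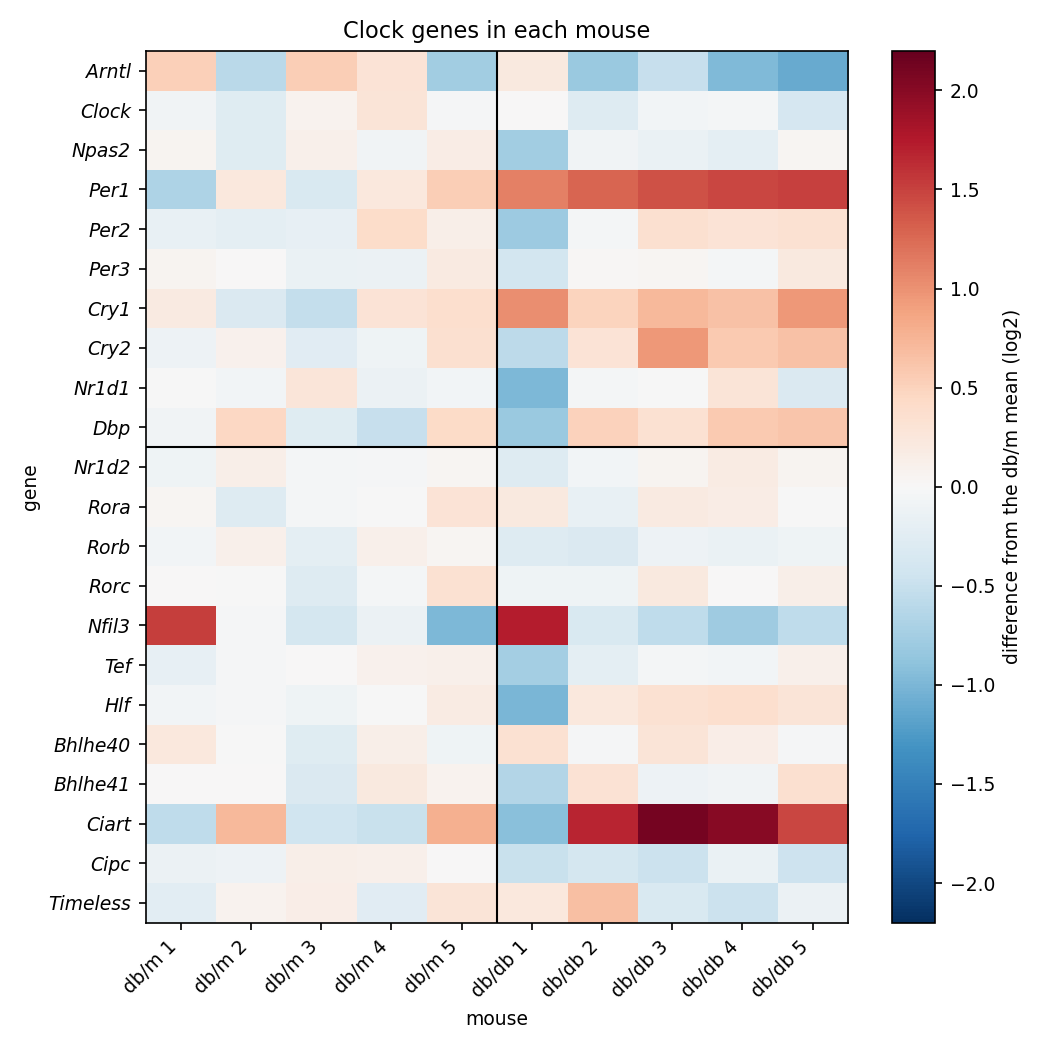
Difference of each mouse from the db/m mean (log2, red higher and blue lower) for the 10 core clock genes, above the line, and 12 genes of the second loop and further repressors, below it. Per1 and Cry1 are above the db/m mean in all 5 db/db mice, and Ciart in db/db 2 to 5 but not in db/db 1, which is at -0.91.

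Among genes under clock control the count was small with all arrays. Of 11 outputs limma called none, and 1, the pyruvate dehydrogenase kinase gene Pdk4, had an unadjusted p under 0.05 (0.93 ± 0.30, adjusted p = 0.101). When db/db 1 was left out, Pdk4 rose by 0.65 ± 0.19 (adjusted p = 0.0479), a smaller change that passed, with overlapping groups. Of 9 kidney transport genes 1 rose and 0 fell: Sgk1, a kinase gene that raises sodium uptake, went from 12.79 ± 0.15 to 13.19 ± 0.08 (SD, n = 5 each), apart by 0.11 (0.41 ± 0.08, limma adjusted p = 0.0201, and 0.43 without db/db 1, adjusted p = 0.0112). Sgk1 lost its call with arrays centred on their medians (0.0714), with the mouse number as a block (0.0749) and without db/m 3 (0.0630). Without db/db 1 this list had 4 rises of 9, against the 6.84% of all genes given above. Besides Sgk1 they were the sodium channel gene Scnn1a (0.70 ± 0.11, adjusted p = 0.00357), the water channel gene Aqp2 (0.57 ± 0.10, adjusted p = 0.00611) and the salt cotransporter gene Slc12a3 (0.46 ± 0.10, adjusted p = 0.0140). With all arrays these were at 0.44, 0.39 and 0.21, and none was called. Aqp2 and Slc12a3 are themselves among the markers of these segments, and only some of the other markers moved with them. Taken from the db/m mean, Umod was at -0.24 to 0.05 in the db/db mice, Slc12a1 at -1.78 to 0.14 and Aqp3 at -2.17 to 1.10. The mean of 4 collecting duct markers, Aqp2 included, was 9.45 to 9.96 in db/m, 8.92 in db/db 1 and up to 10.46 in the other db/db mice. None of them was called by limma with all arrays, with 1 at an unadjusted p under 0.05, and 2 of the 4, Aqp2 and Scnn1b (0.77 ± 0.10), rose when db/db 1 was left out. Of 4 thick ascending limb and distal tubule markers limma called none with all arrays, with 0 at an unadjusted p under 0.05, and 2, Slc12a3 and Calb1 (0.39 ± 0.10), rose when db/db 1 was left out. The part of these markers in the result was not tested.

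Signals that can set Per1 outside the loop were read from 3 further lists. Of 8 glucocorticoid-responsive genes 1 rose and 0 fell: Mt2, a metallothionein gene that metals also induce, rose by 0.81 ± 0.10 (limma adjusted p = 0.00212), or by 0.74 without db/db 1, with db/m at 12.77 to 13.00 and db/db at 13.42 to 13.98. The receptor gene Nr3c1 was at -0.33 ± 0.09 (adjusted p = 0.0687), and without db/db 1 it fell by 0.26 (adjusted p = 0.0433). In this list 4 genes had an unadjusted p under 0.05, against 21.5% of all genes. Fkbp5, Zbtb16 and Tsc22d3, not called, lay above the db/m mean in all 5 db/db mice. They stood 0.23 to 0.80, 0.27 to 1.66 and 0.06 to 0.50 above it, with db/m 5 at 0.77, 0.83 and 0.28. Klf9, Dusp1 and Errfi1 had db/db mice on both sides of it. Of 8 immediate early genes limma called none, with 2 at an unadjusted p under 0.05. The nuclear receptor gene Nr4a1 was nearest (0.69 ± 0.26, adjusted p = 0.150, and 0.70 without db/db 1, adjusted p = 0.140).

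Of 5 temperature-responsive genes 3 fell and 0 rose. Hspa1a, an inducible heat shock chaperone gene, read 9.73, 8.59, 10.88, 10.82 and 9.40 in db/m mice 1 to 5 and 7.74, 7.20, 7.25, 7.43 and 7.82 in db/db mice 1 to 5. It fell by 2.40 ± 0.41, or 5.26-fold (limma adjusted p = 0.00914), with the groups apart by 0.77. Within db/m the lowest mice, 2 and 5, were also those with the lowest Arntl. Within db/db this did not hold: db/db 5, with the lowest Arntl at 7.54, had the highest Hspa1a. Hspa1b fell by 1.88 ± 0.37 (adjusted p = 0.0173), but this copy is nearly identical to Hspa1a, so their probes need not separate them. Hsph1, a cochaperone gene, fell by 1.06 ± 0.12 (adjusted p = 0.00123). Hspa1a, Hspa1b and Hsph1 stayed past the threshold whichever array was left out, and without db/db 1 their changes were -2.46, -2.00 and -1.06.

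The cold-inducible RNA-binding protein gene Cirbp had a higher mean in db/db. It read 9.09, 9.32, 9.08, 8.38 and 8.97 in db/m and 8.98, 10.16, 11.20, 10.37 and 10.15 in db/db. With all arrays its change was 1.20 ± 0.35 (limma adjusted p = 0.0701), since db/db 1 lay among the db/m mice, and without db/db 1 it rose by 1.501 ± 0.24 (adjusted p = 0.00421). Dnajb1, another cochaperone gene, was at -0.81 ± 0.24 (limma adjusted p = 0.0716), and at -0.80 without db/db 1 (adjusted p = 0.0713).

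**Figure D5:**
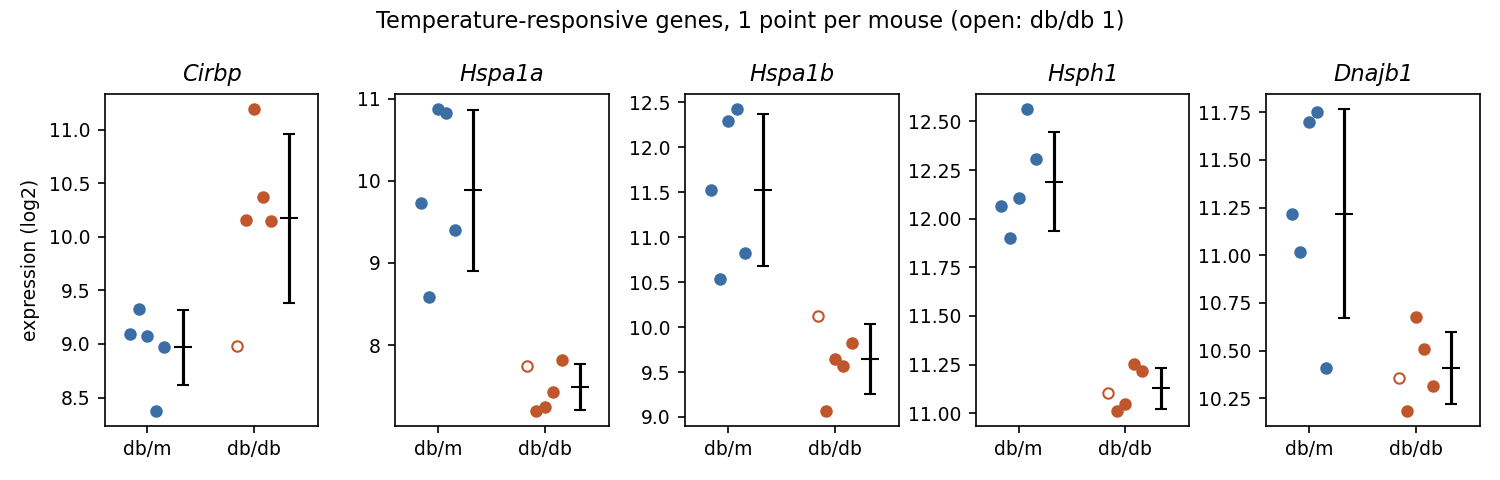
Expression of 5 temperature-responsive genes (log2, each panel with its own axis) in each mouse, with the mean and SD as bars and db/db 1 as an open point. Hspa1a, Hspa1b and Hsph1 are lower in all 5 db/db mice than in any db/m mouse, and Cirbp is higher in db/db 2 to 5 but not in db/db 1.

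Other values moved with the groups. Of 5 podocyte markers 2 rose by limma, with a mean over the list of 9.03 to 9.30 in db/m and 9.18 to 9.69 in db/db. All 5 rose when db/db 1 was left out, against 6.84% of all genes. The part of these markers in the rises of Per1 and Cry1 was not tested. For 6 of the 10 members db/db 1 was the lowest of all mice, which also held for 41.6% of all genes. Per1 and Cry1 were not among these: in db/db 1 Per1 was the lowest and Cry1 the highest of the db/db mice, and their changes were 1.42 and 0.70 without it.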

How the data were processed

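The authors deposited log2 expression values, which the submitters' processing notes credit to RMA without a version. The table had 1 value per Entrez gene; how probes were regrouped was not stated. RMA as usually run equalises the arrays' distributions, so changes are relative to the other genes. The 64 control rows were left out, which leaves 16475 genes, and array medians were 8.46 to 8.66. The number of arrays limits the precision. Mice are numbered within groups by the labels. That they were separate animals follows from the titles.

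The comparison of db/db with db/m used lmFit and eBayes of limma 3.58.1 under R 4.3.3, two-sided, with Benjamini-Hochberg adjustment over all 16475 genes and a threshold of 0.05. The fit was tested on simulated data. Members and lists were chosen with earlier results of these data known. All members are named, then up to 4 called genes per list by size of change, or the gene with the lowest adjusted p, then the 5 genes most like Arntl and Dbp. Ciart, Hlf, Nfil3, Scnn1a, Slc12a3, Aqp2, Scnn1b, Calb1, Nr3c1, Cirbp and Dnajb1 were named after their values were seen. The same holds for every other marker named and for every glucocorticoid-responsive gene named besides Mt2. One gene that this rule names is not reported here. Of 65 other listed genes 62 had a row. Alternatives were a replicate block, a filter on the dimmest 25%, repeated quantile normalisation, median centring, trended, robust eBayes, weights for arrays and each array left out. Likeness without db/db 1 was added after seeing the data. Promoters are from RefSeq, build GRCm38.p6. Figures used Python 3.11.15 and matplotlib 3.10.9.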

Additional observations from a re-analysis of the deposited data

Results flagged for a closer look

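In 8 of 58 groups of 5 mice, 1 mouse stood far from the other 4. Its gap to the nearest of them was above 0.71 of the group's range. In 6 of the 8 this mouse was db/db 1. Ciart, Hlf, Nfil3, Scnn1a and Slc12a3, flagged for db/db 1, were named after their values were seen, and all genes share the same arrays. The count can therefore not be set against chance. It read 11.04 for Dbp (nearest db/db mouse 12.21), 8.42 for Ciart (10.80), 10.59 for Hlf (11.83), 9.33 for Scnn1a (10.47) and 11.89 for Slc12a3 (12.94), all lower than the rest, and 11.54 for Nfil3 (9.48), higher than the rest. Nr1d1 in db/m 3 was high at 11.28 (nearest 10.99), and Cipc in db/db 4 was high at 9.19 (nearest 8.95).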

How the results depend on the processing

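Of the 10 members 2 were called with all arrays, 1 with arrays centred on their medians, 4 with array weights and 1 to 3 with 1 array left out. Over all genes the count was 1072, and 393 with the mouse number as a block, 2641 with array weights and 490 to 2104 with 1 array left out, the highest without db/db 1. Of the 62 genes of the other lists, those on glucocorticoids, temperature and immediate early genes included, 6 were called. Their count was 14 with array weights and 4 to 14 with 1 array left out, again highest without db/db 1. The mouse numbers did not pair the arrays, since deviations of same-numbered mice correlated at -0.09 to 0.01, and no mouse correlated best with its own number. With this replicate block Per1 (adjusted p = 0.0193) and Cry1 (0.0490) stayed past the threshold, and Cipc (0.0748) and Sgk1 (0.0749) did not. Changes near 0 turned sign: Per2 (0.03) to -0.061 with quantile normalisation repeated, -0.037 with median centring and -0.052 to 0.24 with 1 array left out; Per3 (-0.03) to 0.051 with array weights and -0.097 to 0.060 with 1 array left out; Hlf (0.04) to -0.025 with median centring and -0.037 to 0.30 with 1 array left out; and Nfil3 (-0.10), -0.56 to 0.28 with 1 array left out. The cause was not tested. Over the 29 genes checked, 249 of the values with 1 array left out and 157 under other settings kept direction and side of the threshold. Of the rest, in the same order, 16 and 4 turned sign, 15 and 4 lost the call and 10 and 8 gained it.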
